A study of Mus musculus with 5 samples.

Results

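Double-positive thymocyte-like barcodes were described in single-cell RNA sequencing (scRNA-seq) of mouse small cell lung cancer (SCLC) tumours. They were chosen by their own counts of unique molecular identifiers (UMIs). A barcode was included when it had more than 150 genes, at most 8% mitochondrial UMIs and at least 1 UMI of each of Cd4, Cd8a or Cd8b1, and Rag2 or Dntt, together with 0 UMIs of Mki67 and Top2a. The rule was met by 3394 of the 86735 barcodes of the series, 498 of them in the library of the anti-PD-1 group and 2896 in that of the combination in response group. They are compared below with all other barcodes of the same libraries that held a UMI of Cd3e, Cd3d or Cd3g (other Cd3-positive barcodes).

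All animals were Rb1 fl/fl x Trp53 fl/fl mice on a C57BL/6 background, of both sexes and at least 6 weeks old at the start, in which inhaled adenoviral Cre deletes both tumour suppressor genes in the lung only. Tumours grew for about 6 months, after which anti-PD-1 (clone RMP1-14, an antibody against the checkpoint receptor PD-1 of T cells) and mubritinib (an oral ERBB2 inhibitor, ERBB2i) were given at 10 mg/kg every 3 days. Mice of the series had vehicle, either agent alone (anti-PD-1 or ERBB2i) or both together, the last in one group labelled combination and another labelled as in response. Each group is 1 library, so no difference between groups has a replicate check, and treatment, animal and library cannot be told apart. All 95% intervals below are exact and cover counting error only.

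Double-positive thymocytes are an intermediate stage of T cell development in the thymus. They carry both co-receptors, CD4 and CD8, and after a burst of division driven by the pre-T cell receptor they rearrange the T cell receptor (TCR) alpha genes with the RAG recombinase. A cell whose receptor binds MHC with useful strength is positively selected, raises CD69 and CD5, keeps one co-receptor and acquires the genes for leaving the thymus, whereas a cell without such a signal dies. These cells are known from the thymus, while the samples are labelled as SCLC lung tumour, of neuroendocrine origin and with epithelial as the cell type. Transcripts of neuroendocrine and epithelial genes in the double-positive barcodes are given further down.

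The anti-PD-1 library held 12970 barcodes past the filters on genes and mitochondrial share, and the combination in response library 10070. Double-positive thymocyte-like barcodes made up 3.84% (95% interval 3.52 to 4.18) of the first and 28.8% (27.9 to 29.7) of the second. None of the 8942 such barcodes in vehicle, 26240 in ERBB2i or 27069 in combination met the rule. The 95% intervals of these shares reach up to 0.0412%, 0.0141% and 0.0136%. These libraries did hold Cd3-positive barcodes, 115 in vehicle, 3711 in ERBB2i and 1683 in combination. Barcodes that met the rule but for a UMI of Mki67 or Top2a, called cycling double-positive below, numbered 867 in anti-PD-1 and 912 in combination in response. The ratio of non-cycling to cycling barcodes thus lay on opposite sides of 1 in the 2 libraries. A single Mki67 or Top2a UMI sets this split, and deeper barcodes reach it more readily. Median depths were 3032 and 3844 UMIs in the cycling barcodes against 891 and 1212 in the others. The part of depth and of free RNA from tumour cells in this ratio was not tested.

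**Figure D1:**
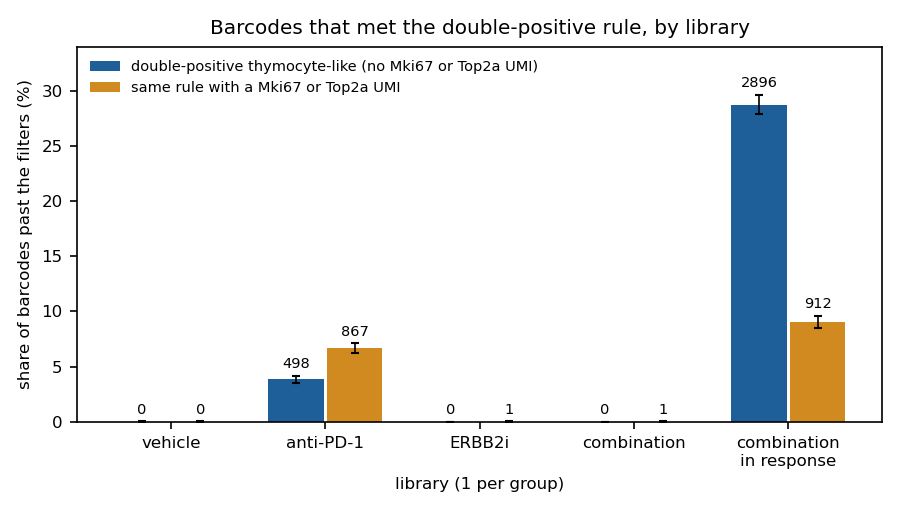
Share of barcodes past the filters (y axis, percent) that met the double-positive rule without a Mki67 or Top2a UMI (blue) and with one (orange) in each of the 5 libraries, with exact 95% intervals as bars and the number of barcodes above. Only anti-PD-1 (498 and 867) and combination in response (2896 and 912) hold more than 1 barcode of either kind.

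The libraries stood apart in makeup. Barcodes with at least 3 UMIs of 5 neuroendocrine tumour genes numbered 4532 in anti-PD-1 and 5 in combination in response, and B cell-like barcodes, with at least 3 UMIs of 4 B cell genes, 702 and 108. Barcode sequences had 27 bases in these libraries and in vehicle and 24 in ERBB2i and combination. Between anti-PD-1 and combination in response 79 barcodes were shared. None of the double-positive ones was double-positive in both, while 23 of combination in response were also deposited in anti-PD-1. Their removal left 2873, and no count or list result below moved by over 1.5 times.

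Double-positive barcodes were shallow. Their median was 891 UMIs (interquartile range 702 to 1168) and 588 genes in anti-PD-1, and 1212 UMIs (955 to 1574) and 773 genes in combination in response. The cycling double-positive barcodes had medians of 3032 and 3844 UMIs, and the other Cd3-positive ones 2147 and 1376. The mitochondrial share was low, with medians of 2.08% and 1.98%. Summed over barcodes, the double-positive class held 523788 UMIs in anti-PD-1 and 3987434 in combination in response, so the intervals of low genes are wider in the first. Near the limits of the rule, 316 of the 498 anti-PD-1 barcodes (63.5%) and 1397 of the 2896 in combination in response (48.2%) had exactly 1 Cd4 UMI, and 13 and 87 had 1 UMI of each of the 3 gene groups. Just outside it, 614 and 1731 barcodes lacked only Cd4, 34 and 248 lacked only Cd8a and Cd8b1, and 184 and 711 lacked only Rag2 and Dntt.

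The label was checked against its markers. Cd4, Cd8a, Cd8b1, Rag2 and Dntt belong to the rule and their levels are a description. In counts per 1000000 UMIs of the class (CPM), Cd4 stood at 1501 in anti-PD-1 and 1457 in combination in response, Cd8b1 at 3881 and 2863, Rag2 at 437 and 522, and Dntt, the polymerase that adds bases at the joints, at 2346 and 2092. Ccr9, the receptor for the thymic chemokine CCL25, was not used by the rule. It stood at 1016 CPM against 193 in other Cd3-positive barcodes of anti-PD-1, a log2 ratio of 2.40 (2.26 to 2.53), and at 1232 against 493 CPM in combination in response, a log2 ratio of 1.32 (1.27 to 1.37). Over the alternatives tried the first ratio lay between 1.23 and 2.55, and the second between 0.30 (barcodes of 1000 to 3000 UMIs) and 1.36, so that in combination in response the 2-fold difference depended on depth and reference. At least 1 CD3 UMI was seen in 465 of 498 (93.4%) and 2619 of 2896 (90.4%) double-positive barcodes. With each barcode thinned to 500 UMIs, a Ccr9 UMI was found in 39.6% (35.2 to 44.0) in anti-PD-1, where unthinned barcodes gave 58.4%, and in 44.3% in combination in response. The same share was 1.42% in B cell-like barcodes of anti-PD-1 but 11.1% in those of combination in response, of which 15 of 108 (13.9%) met the double-positive rule themselves, against 3 of 702 (0.427%) in anti-PD-1. Unthinned, 48.1% and 8.97% of these B cell-like barcodes held a Cd3e UMI, so in combination in response they are no measure of a level outside the T lineage.

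Before single genes are given, the background of each comparison is needed. A gene was compared in a library when either class held at least 50 of its UMIs, and it was counted as higher or lower at a 2-fold difference in CPM. Against other Cd3-positive barcodes, 11.9% of 11543 genes were higher and 15.6% lower in anti-PD-1, and 6.03% of 10503 were higher and 12.5% lower in combination in response. In both libraries 356 of 10012 genes (3.56%) were higher and 752 (7.51%) lower. Of the other Cd3-positive barcodes, 3427 of 5629 in anti-PD-1 and 1932 of 5965 in combination in response held Mki67 or Top2a, which the rule bars. Without them 4.20% of genes were higher and 11.0% lower in anti-PD-1, 1.13% higher and 5.93% lower in combination in response, and 31 of 7155 genes (0.433%) higher and 281 (3.93%) lower in both. The number of genes higher in both thus depended on this choice, and it also fell to 20 among barcodes of 1000 to 3000 UMIs. Since the rule used the counts of these cells, all of this is description.

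A further class was formed of barcodes with UMIs of a single co-receptor. Single-positive barcodes were Cd3-positive, held UMIs of only one co-receptor and lacked Rag2, Dntt, Mki67 and Top2a. They numbered 634 with a median of 1039.5 UMIs in anti-PD-1 and 981 with 1204 UMIs in combination in response, depths near those of the double-positive barcodes. With so few UMIs a missing co-receptor may be a missed one, so this class can hold double-positive cells. Mature T cells of the tumour can meet its rule as well. It was also met by 39 barcodes in vehicle, 765 in ERBB2i and 413 in combination, where no barcode was double-positive. Differences from this class are therefore not steps of a lineage shown by these data. Double-positive barcodes were higher than single-positive ones in 8.19% and lower in 8.13% of 3234 genes in anti-PD-1, higher in 6.76% and lower in 4.36% of 8126 in combination in response, and in both libraries higher in 127 of 3165 genes (4.01%) and lower in 166 (5.24%). Against cycling double-positive barcodes, 6.33% of 6616 genes were higher and 8.16% lower in both libraries. Across genes the ratios to single-positive barcodes correlated between the libraries with a Pearson r of 0.85 over 3165 genes, and those to other Cd3-positive barcodes with 0.71 over 10012 genes, or 0.72 over 7155 without Mki67 or Top2a barcodes. Genes are not independent replicates, and those of the rule are included.

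Genes known for the double-positive stage stood higher in the double-positive barcodes than in each of these references, by list median. The list of 20 genes holds Themis, which is needed for positive selection, Ccr9, and others described in turn. Against other Cd3-positive barcodes 16 of 20 were higher in anti-PD-1 and 12 of 20 in combination in response, with list medians of 1.55 and 1.14 on the log2 scale beside 0.02 and 0.14 for all genes compared. Against non-cycling other Cd3-positive barcodes the counts were 15 and 2 of 20, with medians of 1.29 and 0.58. Against single-positive barcodes 12 of the 16 compared were higher in anti-PD-1 and 10 of 20 in combination in response, with medians of 2.06 and 1.00. In combination in response the count of 12 became 2 at matched depths of 1000 to 3000 UMIs and 0 when each barcode was scaled before averaging.

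Endou, which encodes an endoribonuclease, stood at 932 CPM in double-positive, 326 in other Cd3-positive and 139 in single-positive barcodes of anti-PD-1. In combination in response the same levels were 972, 459 and 174 CPM. Its log2 ratio to single-positive barcodes was 2.74 (2.44 to 3.05) in the first library and 2.48 (2.29 to 2.67) in the second, and it stayed at least 2-fold above the non-cycling other Cd3-positive barcodes in both, at 1.78 and 1.25. Aqp11, an aquaporin gene, measured 598 against 75.9 CPM and 779 against 209.5 CPM. For both genes the double-positive class was highest and the single-positive class lowest in both libraries.

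Arpp21, which encodes a phosphoprotein that binds RNA, was at 798 CPM against 139 in single-positive barcodes of anti-PD-1 and at 1729 against 721 in combination in response. Its log2 ratio thus dropped from 2.52 (2.21 to 2.83) to 1.26 (1.17 to 1.36). Rmnd5a, which encodes a subunit of a ubiquitin ligase, had log2 ratios of 2.38 and 1.65, and Chrna9, a nicotinic receptor subunit, 2.66 and 1.92. Ly6d, a surface protein of early lymphocytes, stood at 2730.1 and 2418 CPM and gave 2.65 and 2.62. These ratios to single-positive barcodes were at least 2-fold in both libraries. Against other Cd3-positive barcodes Ly6d was at 1.06 in anti-PD-1 but 0.21 in combination in response. Arpp21, at 1.57 and 1.11, and Rmnd5a, at 2.00 and 1.42, stayed at least 2-fold there.

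Themis, Satb1 and Ccr9 separated the classes less in combination in response. Themis was at 668 CPM against 260.1 in single-positive barcodes of anti-PD-1, and at 2451 against 1565 in combination in response, where the log2 ratio of 0.65 (0.58 to 0.71) was under 2-fold. Satb1, a chromatin organiser, gave 0.73 and 0.23, and Ccr9 1.17 and 0.51. A Themis UMI was found in 57.2% of thinned double-positive barcodes of combination in response. The share was 45.1% in other Cd3-positive, 44.9% in single-positive and 18.5% in B cell-like barcodes of that library. Cd2, an adhesion receptor on the same list, went the other way, with 246 CPM against 1141 in single-positive barcodes of anti-PD-1 and 169 against 848 in combination in response, log2 ratios of -2.21 and -2.33. Cd24a, a surface protein of immature thymocytes, was within 2-fold of every reference given here.

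**Figure D2:**
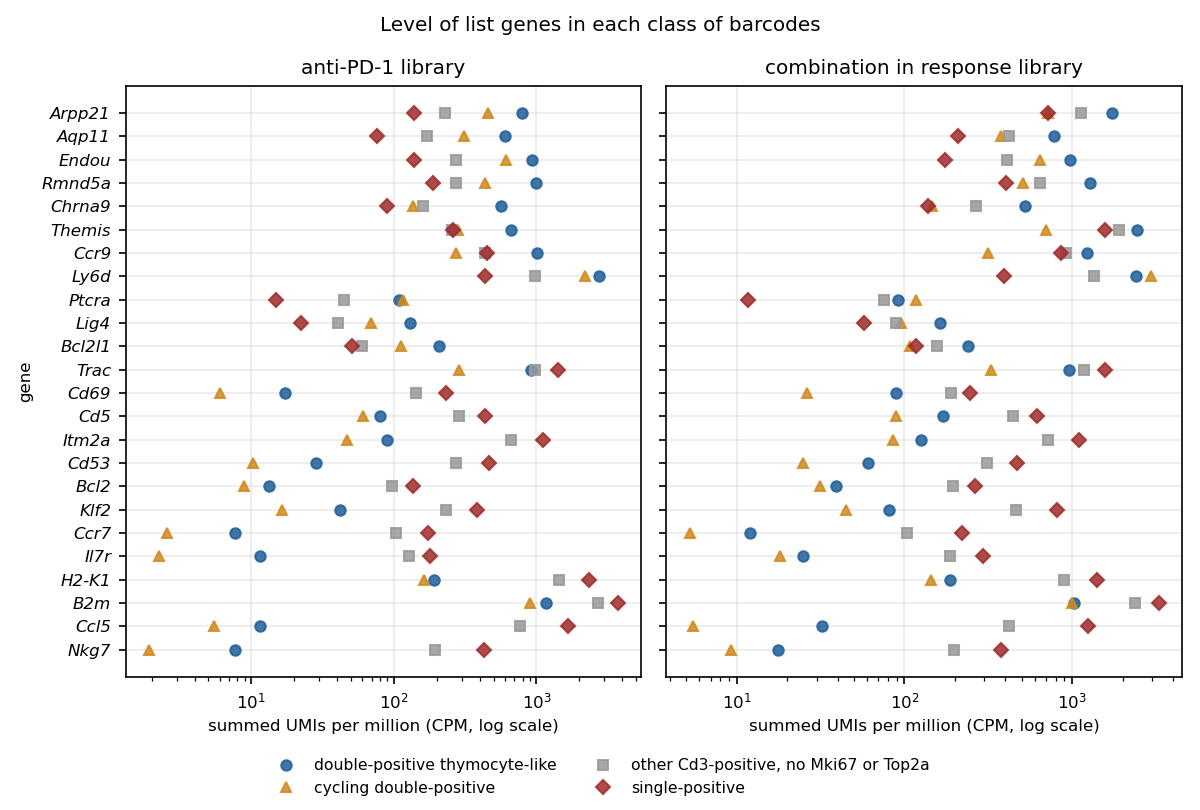
Level of 24 genes of the lists (rows) in CPM on a log scale (x axis) in double-positive (circles), cycling double-positive (triangles), non-cycling other Cd3-positive (squares) and single-positive barcodes (diamonds), in anti-PD-1 on the left and combination in response on the right. Stage genes such as Endou (932 and 972 CPM) lie highest in the double-positive class, while Itm2a, Klf2, Ccr7 and H2-K1 lie highest in the single-positive class.

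Genes of receptor recombination were higher than in single-positive barcodes, a class defined by the absence of 2 of them. Outside the rule, Ptcra encodes the invariant chain of the pre-T cell receptor, which pairs with a newly made beta chain. It stood at 109 CPM against 14.9 in single-positive barcodes of anti-PD-1 and at 91.3 against 11.7 in combination in response, log2 ratios of 2.87 (1.95 to 3.90) and 2.97 (2.27 to 3.76). Against other Cd3-positive barcodes Ptcra was within 2-fold, at 0.46 (0.06 to 0.85) and -0.11 (-0.28 to 0.06). Xrcc6 and Lig4, which encode the Ku70 protein and the ligase that join broken DNA ends, gave log2 ratios of 2.34 and 2.53 in anti-PD-1 and 2.06 and 1.50 in combination in response. Dclre1c, the gene of the nuclease Artemis that opens hairpin ends, measured 43.9 CPM against 19.9 and 146 against 93.4, and Prkdc, the DNA-dependent kinase, 11.5 against 21.2 and 39.9 against 39.8. Of the 9 genes on the list 6 of 6 compared were higher than in single-positive barcodes in anti-PD-1 and 6 of 8 in combination in response, Rag2 and Dntt included. Rag1, the partner of Rag2, was listed at 0 UMIs in every class of both libraries, so its level could not be read.

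TCR chains showed unequal levels. Trac, the constant region of the alpha chain, was at 909 CPM in double-positive, 351 in other Cd3-positive and 1418 in single-positive barcodes of anti-PD-1, and at 965, 613 and 1574 in combination in response. It was thus below the single-positive level in both libraries, with log2 ratios of -0.64 (-0.80 to -0.49) and -0.71 (-0.78 to -0.63), though by less than 2-fold. Trbc1 and Trbc2, the constant regions of the beta chain, were above that level, at 1.12 for both in anti-PD-1 and 0.80 and 0.72 in combination in response. As these 2 genes are near-identical copies, the split of reads between them is uncertain. The gamma chain genes Trgc1, Trgc2 and Trgc4 were lower than in other Cd3-positive barcodes in both libraries, with 2 UMIs each in anti-PD-1 and log2 ratios of -2.44, -2.55 and -2.69 in combination in response. Cd3e differed little from the single-positive level, at log2 ratios of 0.00 (-0.14 to 0.14) and 0.05 (-0.02 to 0.12). The single-positive class was chosen on a CD3 UMI and the double-positive one was not, so these ratios depend on that choice. Variable segments were sparse, with 77 UMIs over 15 of 35 listed Trbv segments in anti-PD-1 and 1094 over 23 in combination in response, and Trbv2 held 27.3% and 20.7% of them.

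Transcription factors of the T lineage lay on both sides of the single-positive level. Tcf7, which encodes TCF1, stood at 2247 CPM against 992 in single-positive barcodes of anti-PD-1 and 2537 against 1667 in combination in response, log2 ratios of 1.18 and 0.61. Myb, needed for survival at this stage, gave 2.06 (1.70 to 2.43) and 0.95 (0.83 to 1.07). Of the factors that fix the fate of the mature lineages, Zbtb7b (ThPOK, of the CD4 lineage) was lower at -3.75 on 5 UMIs and -3.45 on 30 UMIs, and Runx3 (of the CD8 lineage) at -1.97 in combination in response, with 12 UMIs in anti-PD-1. Tox, which is induced by positive selection, was at -1.28 and -1.55, Lef1 at -1.10 in both, and Id2 at -2.88 and -2.30. Over the list 4 of 16 genes were higher and 4 lower in anti-PD-1, and 1 of 19 higher and 5 lower in combination in response. Of all genes in the latter, 6.76% were higher and 4.36% lower. Against other Cd3-positive barcodes 6 of 19 factors were higher and 3 lower in anti-PD-1 (median 0.40). In combination in response 0 of 19 were higher and 2 lower (median 0.03). For TCR signalling genes 0 of 13 were higher and 2 lower in anti-PD-1, and 0 of 14 higher and 3 lower in combination in response. Against other Cd3-positive barcodes the direction differed, with 6 of 14 higher and 0 lower in anti-PD-1 (median 0.95) and 0 of 14 in either direction in combination in response (median 0.50). Lck, the kinase bound to the co-receptors, was at 0.70 and 0.66 against single-positive barcodes, while Fyn was at -1.88 and -1.30 and Cd5 at -2.45 and -1.88.

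Genes raised by positive selection were lower in the double-positive than in the single-positive barcodes. Against single-positive barcodes 8 of the 11 list genes compared were lower in anti-PD-1 and 11 of 15 in combination in response, and none was higher, with list medians of -2.45 and -1.74 beside 0.05 and 0.12 for all genes. Cd69, the early activation antigen that holds cells in the thymus, was at 17.2 CPM against 233 in anti-PD-1 and 88.8 against 247 in combination in response. Itm2a, a membrane protein induced by selection, was at 89.7 against 1109 and 125 against 1099.8 CPM. Nr4a1, an immediate target of TCR signals, was at 11.5 against 115 and 148 against 541 CPM, and Cd53, a tetraspanin, at 28.6 against 464 and 60.4 against 471 CPM. Against all other Cd3-positive barcodes the list gave fewer calls, with 6 of 16 genes lower and 1 higher in anti-PD-1 and 5 of 16 lower in combination in response, where Cd69 differed by a log2 ratio of -0.06 (-0.23 to 0.11). Against cycling double-positive barcodes the direction was the other one, with 2 of 8 genes higher in anti-PD-1 (median 0.67). In combination in response 8 of 13 were higher (median 1.12), and none was lower in either library. Of all genes compared there, 648 of 6749 were higher in anti-PD-1 (median 0.11) and 1730 of 8629 in combination in response (median 0.30). Lower were 723 of them in anti-PD-1 and 1023 in combination in response.

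Genes of thymic egress and naive T cells, among which the list also counts H2-K1, were also lower than in single-positive barcodes. Against single-positive barcodes 10 of 12 were lower in anti-PD-1 and 10 of 14 in combination in response, with list medians of -3.57 and -3.12. S1pr1, the receptor that guides cells into the blood, had 4 UMIs (7.64 CPM against 88.4) in anti-PD-1 and 18 UMIs (4.51 against 100.3 CPM) in combination in response. Klf2, the factor that switches on S1pr1, stood at 42.0 against 385 and 81.3 against 812 CPM. Ccr7, a receptor of mature thymocytes and naive T cells, was at 7.64 against 174 and 12.0 against 221 CPM, and Il7r, the interleukin 7 receptor, at 11.5 against 178 and 24.8 against 293 CPM. Gimap6, a GTPase gene on the same list, was within 2-fold, at log2 ratios of -0.61 and -0.56. Of cytotoxic and effector genes 5 of 6 and 8 of 9 were lower, with Ccl5, a chemokine of memory and effector cells, at 6 UMIs (11.5 against 1660.5 CPM) and 128 UMIs (32.1 against 1244 CPM). The exception was Gzma, which encodes granzyme A, at 160.4 against 23.6 CPM and 123 against 33.0 CPM, although other Cd3-positive barcodes as a whole held more, at 277 and 205 CPM. Genes of the double-negative stage that comes before were lower than in other Cd3-positive barcodes for 5 of 14 in anti-PD-1 and 8 of 14 in combination in response, among them Hes1, a target of Notch signals, at -2.44 and -2.26.

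Survival genes differed by member. Bcl2l1, which encodes BCL-xL, the survival protein on which double-positive cells depend, was at 206 CPM against 51.0 in single-positive barcodes of anti-PD-1 and at 241 against 118 in combination in response, log2 ratios of 2.01 (1.48 to 2.57) and 1.03 (0.79 to 1.27). Bcl2, the survival gene of mature T cells, was at 13.4 against 137 and 38.9 against 262 CPM, log2 ratios of -3.36 (-4.70 to -2.27) and -2.76 (-3.03 to -2.48). The 2 genes were thus on opposite sides of the single-positive class in both libraries. Mcl1 was within 2-fold, at 0.33 and 0.12.

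MHC class I genes were lower than in single-positive barcodes as well. H2-K1, a classical class I heavy chain, was at 191 CPM against 2320.2 in single-positive barcodes of anti-PD-1 and 187 against 1406 in combination in response, log2 ratios of -3.60 and -2.91. B2m, the light chain, was at -1.68 in both and H2-Q7, a non-classical class I gene whose sequence is close to those of its neighbours, at -3.96 and -3.88. Of the list 6 of 11 genes were lower and 1 higher in anti-PD-1, and 7 of 12 lower and 0 higher in combination in response. Against other Cd3-positive barcodes only 2 of 12 and 3 of 12 were lower (medians -0.32 and -0.57), in anti-PD-1 a share near that of all genes, and against cycling double-positive barcodes 0 of 11 and 1 of 11. Tap2, a subunit of the peptide transporter, was the gene counted as higher in anti-PD-1, at 1.04 there and 0.44 in combination in response, while its partner Tap1 was at -1.86 and -0.97. An H2-K1 UMI was found in 5.42% of thinned double-positive barcodes and 48.9% of single-positive ones in anti-PD-1, and in 5.08% and 26.6% in combination in response.

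The targets of the treatments had few UMIs. Pdcd1, which encodes PD-1, had 2 UMIs in the double-positive barcodes of anti-PD-1 (3.82 CPM against 66.0 in single-positive ones) and 32 in combination in response (8.03 against 40.5 CPM). Erbb2 had 0 and 1 UMI. The floxed genes were present, Rb1 at 59.2 and 141 CPM and Trp53 at 87.8 and 98.6 CPM. Lag3, an inhibitory receptor gene that lies beside Cd4, was higher than in other Cd3-positive barcodes by log2 ratios of 2.21 (1.14 to 3.13) on 11 UMIs and 1.81 (1.41 to 2.21) on 100 UMIs, though against single-positive barcodes it was at -0.32 and 0.80.

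**Figure D3:**
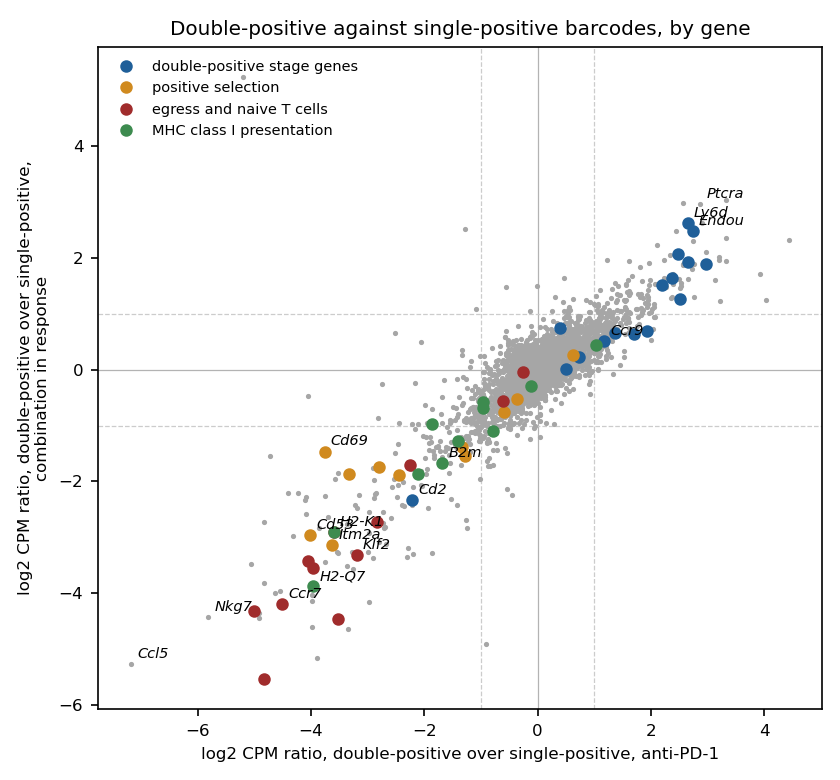
Log2 ratio of CPM in double-positive over single-positive barcodes in anti-PD-1 (x axis) and combination in response (y axis), 1 point per gene compared in both and genes of the rule left out, with 4 lists in colour and dashed lines at 2-fold. Stage genes such as Endou (2.74 and 2.48) lie at the upper right, and genes of selection, egress and MHC class I such as Itm2a (-3.63 and -3.14) and H2-K1 (-3.60 and -2.91) at the lower left.

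By size, the genes most above other Cd3-positive barcodes in both libraries were of low level. The 10 with the largest smaller ratio were Gm15498, Xrra1, Sdc4, Nron, Gm38405, BB031773, Insl5, 2900060B14Rik, Slc6a19 and Gm15340, with smaller log2 ratios between 1.96 and 2.33. Gm15340 was the best covered, at 512 CPM against 45.2 in anti-PD-1 and 316 against 81.4 in combination in response. The 10 lowest were all genes of cell division, led by Nusap1 at -3.72, as the bar on Mki67 and Top2a entails, and for the same reason 19 and 20 of 20 cell cycle genes were lower. Against single-positive barcodes the 10 highest by the same rule, applied there after the data had been seen, were Dgkeos, Ptcra, Ly6d, Gm41600, Gm525, Endou, Syt13, Gm15340, P2rx1 and Gm37065. The 10 lowest were Gimap4, Ly6c2, H2-Q7, Ms4a4b, Slfn1, Izumo1r, Klf2, Itm2a, Tesc and Cd53, between -4.00 and -2.96.

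Genes higher in both libraries often lay next to each other. Of 329 such genes placed on GRCm38.p6 by their RefSeq entry, with the genes of the rule other than Cd4 left out, 67 (20.4%) had another within 100 kb, against 700 of 9484 (7.38%) of all other genes compared. One run lies on chromosome 4, where Gm12709 (102967266 to 102989755), Tctex1d1, BB031773, Insl5 (103017872 to 103027271), Wdr78 and Mier1 (103114324 to 103165754) follow each other. Their log2 ratios were between 1.95 and 3.66 in anti-PD-1 and between 1.13 and 2.04 in combination in response. Insl5, an insulin-like peptide gene, was at 66.8 CPM against 5.27 in anti-PD-1 and 48.2 against 11.7 in combination in response. Reads past the end of a gene can be counted for its neighbour, and no source here states whether strand was used in counting, so such pairs are not independent.

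Within the double-positive class a small group carried Cd69. It held 9 of 498 barcodes (1.81%) in anti-PD-1 and 228 of 2896 (7.87%) in combination in response, with median depths of 1014 and 1359.5 UMIs there against 890 and 1202 in the rest. In combination in response these barcodes were higher in Itm2a, at 347 CPM against 102, a log2 ratio of 1.77 (1.47 to 2.06). Nr4a1 was at 382 against 124 CPM, Cd53 at 152 against 50.9, Cd5 at 323 against 153, Cd2 at 352 against 149.8, Il7r at 72.0 against 19.9 and Ccr7 at 34.7 against 9.69 CPM. Trac was higher by less, at 1222 against 939 CPM and a log2 ratio of 0.38 (0.24 to 0.52). Rag2 and Endou were lower, at -0.47 (-0.73 to -0.23) and -0.49 (-0.68 to -0.31), whereas Ccr9, at 0.12 (-0.01 to 0.26), and Arpp21, at -0.05 (-0.17 to 0.07), had intervals that include 0. Rag2 belongs to the rule, so its levels within the class, here and at matched depth, are a description. Of the 15 other genes of the positive selection list 10 had intervals above 0 and 5 had intervals that include 0, among them Gata3 at 0.28 (-0.30 to 0.81) and Cd27 at 0.10 (-0.09 to 0.28). No share over all genes is given for this split, so this count and the one at matched depth have no background. Depth moved the same genes, since Itm2a, Cd53, Cd5, Il7r and Cd2 were higher in the deepest than in the shallowest of 3 equal groups of double-positive barcodes, by 2.20, 2.34, 1.24, 3.08 and 1.36. Among barcodes of 1000 to 3000 UMIs, with medians of 1414 UMIs with Cd69 and 1365 without, 8 of the 15 genes had intervals above 0. There Itm2a was at 1.93 (1.53 to 2.31), Nr4a1 at 1.25 (0.88 to 1.61), Cd53 at 1.26 (0.61 to 1.86) and Cd5 at 0.68 (0.29 to 1.06), and Rag2 and Endou remained lower at -0.50 (-0.80 to -0.20) and -0.42 (-0.63 to -0.22). The differences of Ccr7, with 4 UMIs, Il7r, with 1 UMI, and H2-K1, at 0.27 (-0.26 to 0.76), were not detectable at that depth. In anti-PD-1 the 9 barcodes held 12130 UMIs, too few for such ratios.

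**Figure D4:**
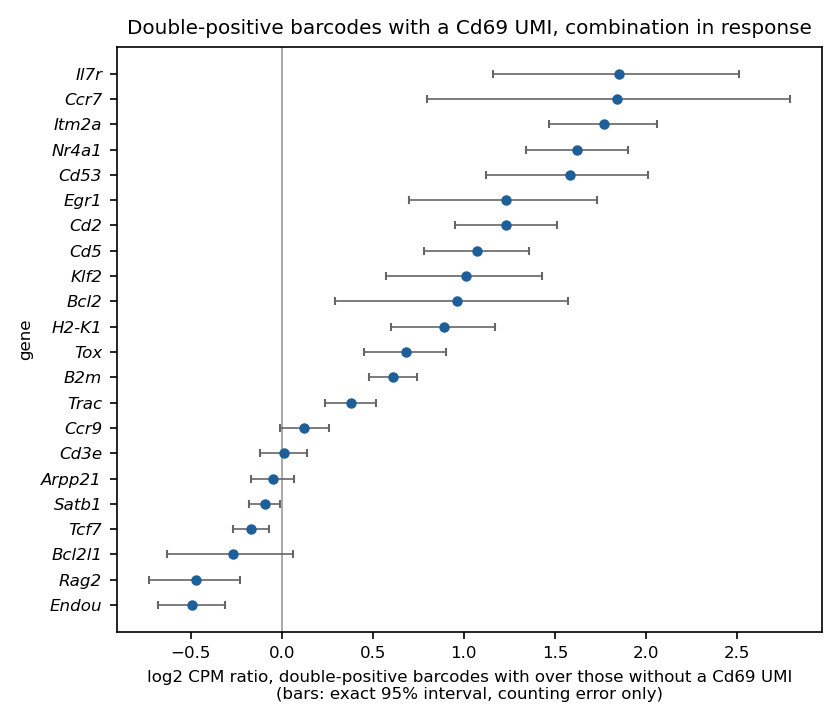
Log2 ratio of CPM in the 228 double-positive barcodes of combination in response with a Cd69 UMI over the 2668 without (x axis) for 22 genes (rows), with exact 95% intervals. Il7r, Ccr7, Itm2a, Nr4a1 and Cd53 lie between 1.58 and 1.85, of which Il7r and Ccr7 did not separate at matched depth. Rag2, a gene of the rule, lies at -0.47 and Endou at -0.49.

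The recombination genes divided the class further. A UMI of both Rag2 and Dntt was found in 124 barcodes of anti-PD-1 and 1035 of combination in response, of Dntt alone in 343 and 1647, and of Rag2 alone in 31 and 214. Barcodes with both had medians of 1048 and 1343 UMIs against 830 and 1159 with Dntt alone, so this split follows depth in part. It was not compared at matched depth. From the shallowest to the deepest of 3 equal groups of combination in response, Themis fell from 3439 to 1751 CPM and Tox from 372 to 321. Ptcra rose from 47.9 to 122 CPM. These directions are those of the split given next. Itm2a, from 44.2 to 203 CPM, and Cd5, from 94.5 to 224, rose with depth, against the split. In anti-PD-1 Themis fell from 967 to 489 CPM and Tox from 228 to 104. In combination in response those with both were lower in Itm2a (72.1 against 169 CPM), Tox (231 against 400.1), Cd5 (125 against 198) and Themis (1942 against 2763) and higher in Ptcra (123 against 71.0). In anti-PD-1 Itm2a, Tox and Themis were lower as well, at -1.36 (-2.77 to -0.18), -1.19 (-2.34 to -0.19) and -0.53 (-0.90 to -0.16), while the intervals of Cd5 and Ptcra, at 0.53 (-0.35 to 1.38), include 0. H2-K1 was higher in combination in response, at 239.9 against 138 CPM, together with Lyz2, a macrophage gene, at 1042 against 17.9 CPM. Without the 5 barcodes with most Lyz2 UMIs H2-K1 was at 146 against 138 CPM, a log2 ratio of 0.08 (-0.17 to 0.34), and in anti-PD-1 it was at 130.5 against 202 CPM.

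Transcripts of other cell types differed in level. The 6 dendritic cell genes summed to 1031 CPM in anti-PD-1 and 1239.6 in combination in response, against 201 and 503 in other Cd3-positive barcodes, but this list holds Ccr9, which alone gave 1016 and 1232 CPM. Of its other genes Flt3 had 7 and 20 UMIs and Itgax 1 and 9, with Siglech and Xcr1 at 0 in both libraries. The 6 macrophage and monocyte genes summed to 32.5 CPM in the double-positive barcodes of anti-PD-1, with 2 of them at 0, and to 529.7 CPM in combination in response, against 19.9 and 125 in other Cd3-positive barcodes. Of this, Lyz2 had 1729 UMIs in combination in response, and 5 barcodes held 98.1% of them. Without those 5 its level would be 8.03 CPM. The 7 neuroendocrine and epithelial genes, Epcam among them, summed to 288 and 16.6 CPM, against 541 and 24.6. In anti-PD-1 free tumour RNA, scaled by 5 neuroendocrine genes, came to an estimated 12.9% of the UMIs of the double-positive class. For other Cd3-positive barcodes the estimate was 22.8%. Of the 4532 neuroendocrine barcodes there, 7.61% held a Cd3e UMI, and those outside the rule count as other Cd3-positive. The estimate does not part free RNA from such tumour barcodes. Erythroid genes summed to 64.9 and 407 CPM, against 373 and 3843. The 8 thymic epithelial genes summed to 21.0 CPM with 5 at 0 and 18.3 CPM with 3 at 0, and 4 of 6 NK cell genes were at 0 in both libraries. B cell genes summed to 888 and 669 CPM against 1429 and 715, and endothelial and fibroblast genes to 141 and 164 CPM against 62.2 and 99.5. Single genes did not all follow these sums. Of the B cell genes 2 of 6 compared were lower in anti-PD-1 and 3 of 5 in combination in response, and 0 were higher. Of 3 endothelial and fibroblast genes compared in anti-PD-1, 1 was higher and 2 were lower, and the 1 compared in combination in response was within 2-fold. The part of these transcripts in the differences above was not tested. Scrublet marked 11 of the 498 barcodes (2.21%) and 119 of the 2896 (4.11%) as doublets.

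The double-positive classes of the 2 libraries were also set side by side. Of 8063 genes compared, 18.7% were at least 2-fold higher in combination in response than in anti-PD-1 and 5.41% lower, and the median over all genes was 0.28. The 2 classes also differed in RNA makeup. The median share of Malat1 was 1.22% in anti-PD-1 and 3.12% in combination in response, and that of ribosomal protein genes 6.94% and 4.33%. Over all barcodes past the filters the Malat1 share was 0.443% and 2.98%. The part of this in the differences below was not tested. Ccr9 was at 0.28, while near-equal levels of Cd4, at -0.04, and Rag2, at 0.26, are set in large part by the rule, which asks for a UMI of Cd4 and of Rag2 or Dntt. Of the positive selection genes 8 of 13 were higher and none lower, among them Nr4a1 (3.69), Cd69 (2.37) and Tox (1.46), and 5 of 20 stage genes were higher, led by Themis (1.87). All 15 cell cycle genes compared were lower, with a list median of -1.89 and Stmn1, a microtubule regulator, at 2432 CPM in anti-PD-1 and 244 in combination in response. The bar on Mki67 and Top2a acts on such genes, and it did so at unequal median depths of 891 and 1212 UMIs. From the shallowest to the deepest of 3 equal groups Stmn1 went from 1318 to 3594 CPM in anti-PD-1. In combination in response it went from 228 to 265 CPM. The part of the rule and of depth in the cell cycle genes was not tested. By size, the 5 highest were Lyz2 (4.51), Taco1 (3.61), Gm20186 (2.49), Fhit (2.45) and Zcchc7 (2.39). Without the 5 barcodes with most Lyz2 UMIs the level of Lyz2 in combination in response was 8.03 CPM. In anti-PD-1 (19.1 CPM) all 10 Lyz2 UMIs lay in 3 barcodes, so no direction can be read for this gene. The 5 lowest were Mt1 (-6.54), Gm10800 (-6.20), Serpine2 (-5.33), Bex2 (-5.18) and Gm1673 (-5.12). Mt1, a metallothionein gene, stood at 5549 CPM in the neuroendocrine barcodes of anti-PD-1, Gm1673 at 835, Serpine2 at 710.0 and Bex2 at 587, whereas Gm10800 stood at 8.60. The part of tumour RNA in the lower genes was not tested gene by gene, and centring on the median gene changed the counts from 1510 higher and 436 lower to 873 and 851.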

How the data were processed

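scRNA-seq libraries were prepared from 5 tumour samples on the Singleron SCOPE-chip. The deposited matrices hold UMI counts per gene and barcode, made by the authors with CeleScope according to the study, while the submitters' processing notes name Cell Ranger, Scanpy and the build mm10 (GRCm38). The version of CeleScope and the annotation are not stated there. Counts were not normalised before deposit. No barcode of the double-positive class had to be left out when thinned to 500 UMIs.

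Barcodes were classified by the rule in the text. Filters of the study on median absolute deviations (MADs) and doublets were not part of it and were tried as alternatives, doublets with Scrublet (scanpy 1.11.5) at its automatic threshold or, where that marked under 0.5%, at a score of 0.25. UMIs were summed per class and library and given as CPM, with exact Poisson, conditional or Clopper-Pearson intervals. A ratio needed at least 50 UMIs in one class, and a sum of 0 was set to 3 counts. No test was made, because a group is a single library, cells are not replicates and the rule used these counts. The calculation was tested on simulated data. Named genes were the markers, the lists, the 10 genes with the largest smaller-of-both-libraries ratio to other Cd3-positive barcodes in each direction, and the 5 with the largest ratio between the libraries in each direction, with at least 10 UMIs in each class. This last step passed over genes of the rule and mitochondrial, ribosomal, haemoglobin, immunoglobulin, TCR variable, X-inactivation and Y-linked genes. Some genes of the lists count in their totals but are not reported here by name. The class and the lists were chosen with earlier results of these data known. Alternatives covered the rule, the filters, depth, scaling, minimum counts and the reference barcodes.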

Additional observations from a re-analysis of the deposited data

Results flagged for a closer look

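Outside the 2 libraries described, 1 barcode of ERBB2i and 1 of combination met the double-positive rule but for a Mki67 or Top2a UMI, whereas vehicle held 0. These libraries enter no comparison above.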

How the results depend on the processing

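Of 388 summary values under 18 alternatives, 321 stayed within 1.5 times the reported count or within the interval of the reported share. The genes higher in both libraries (356) numbered 31 without Mki67 or Top2a barcodes among the others, 20 at 1000 to 3000 UMIs, 26 with scaled barcodes, 65 with the MAD filters, 219 when centred, 234 with at least 2 UMIs of each gene group, 211 with a minimum of 200 UMIs and 235 without cycling double-positive barcodes. Those lower in both (752) were 281 without Mki67 or Top2a barcodes and 248 at 1000 to 3000 UMIs. In anti-PD-1, 1369 higher became 3319 with 2 UMIs, 488 at matched depth, 321 without Mki67 or Top2a barcodes, 2503 and 840 with minimums of 20 and 200 UMIs and 2197 with free tumour RNA subtracted. There, 1804 lower became 838 without Mki67 or Top2a barcodes and 1056 with intervals that leave out no difference. In combination in response, 633 higher became 133 with the MAD filters, 71 at matched depth, 401 when centred, 77 scaled, 364 with a minimum of 200, 103 and 407 without the 2 kinds of cycling barcodes. There, 1313 lower became 836, 503 and 539 with the MAD filters, at matched depth and without Mki67 or Top2a barcodes.

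The share of double-positive barcodes became 0.933% and 11.4% with 2 UMIs, 3.01% and 30.8% with over 500 genes, and, in combination in response, 31.8% with the MAD filters and 26.0% when CD3 was required. Thinning to 1000 UMIs gave Ccr9 in 55.7% and 63.3%. Against other Cd3-positive barcodes, the stage genes higher in combination in response (12 of 20) became 4 with the MAD filters, 2 at matched depth, 0 scaled and 2 without Mki67 or Top2a barcodes. TCR signalling genes higher in anti-PD-1 (6) became 2, 1 and 0 at matched depth, scaled and without Mki67 or Top2a barcodes, and T-lineage factors (6) 2, 3 and 3. In combination in response such factors numbered 1 with doublets left out and 2 with over 500 genes, against 0. Positive selection genes lower (6 and 5) became 10 and 12 without Mki67 or Top2a barcodes and, in combination in response, 3, 12 and 11 with 2 UMIs, at matched depth and scaled. MHC class I genes lower became 6 without Mki67 or Top2a barcodes and 4 scaled in anti-PD-1 (2), and 5 in combination in response (3) with the MAD filters, at matched depth and without Mki67 or Top2a barcodes. Egress genes lower in anti-PD-1 (6) became 11 scaled and 10 without Mki67 or Top2a barcodes. Cytotoxic genes lower became 4 with 2 UMIs in anti-PD-1 and 7 with a minimum of 200 in combination in response. Between the libraries, 1510 higher became 873 centred and 764 with a minimum of 200, and 436 lower became 851 centred, 727 and 171 with minimums of 20 and 200.

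Of 850 single gene ratios to other Cd3-positive barcodes, 833 kept their sign and 5 ratios of at least 2-fold changed it. These were Pdcd1 in anti-PD-1 with 2 UMIs (0.41), Lyz2 in combination in response with the MAD filters (-0.04) and scaled (-0.30), and in anti-PD-1 Trac (-0.11) and Lyz2 (-0.10) without Mki67 or Top2a barcodes. The causes of these shifts were not tested. Chosen after seeing the data were 5 alternatives, the comparison within the class at matched depth and without barcodes rich in Lyz2, the subtraction of free tumour RNA, the removal of shared barcodes and the call by intervals. With few UMIs in the anti-PD-1 class, low genes there are imprecise. No paired analysis was possible because each group holds 1 library.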
